A study of Bos taurus with 33 samples.

Results

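The transcripts of 9 enzymes that make serine, convert it to glycine and handle the carbon unit it releases were described in bovine oocytes and cumulus cells (CC) from preovulatory follicles. They were SHMT1, SHMT2, PHGDH, PSAT1, PSPH, MTHFD1, MTHFD2, MTHFD1L and GLDC, found by gene symbol and joined between the oocyte and CC tables by Ensembl identifier, and all 9 were listed in both tables, out of 16279 genes in the oocyte table and 16244 in the CC table. The family was chosen because SHMT2 had differed between small and large CC pools, so values of that comparison are given as a description, with no test. The study sequenced RNA from pools of the oocytes, or of the CC, of 4 cumulus-oocyte complexes of Hereford-Angus crossbred postpartum beef cows. According to the paper, CC were pooled from the same complexes as the oocytes. The labels do not say which oocyte and CC pools share complexes, so no pairing across cell types was used. Every cow received GnRH on day -9 and prostaglandin F2α on day -2. Cows without estrus received a second GnRH injection on day 0. They were classified by the largest follicle as small (up to 11.7 mm, 6 oocyte and 6 CC pools) or large (from 12.7 mm, 6 and 6 pools). Cows that showed estrus had their own gonadotropin surge and received no second GnRH. These formed the spontaneous classification (11.7 to 14.0 mm, 4 oocyte and 5 CC pools), so small and spontaneous pools differ in both follicle size and kind of surge. Complexes were aspirated about 23 h (about 20 h in another label of the same pools) after GnRH or estrus. Each pool mixes 4 animals, so differences between single complexes are averaged within it.

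Serine is made from a glycolytic intermediate in 3 steps, by PHGDH, PSAT1 and PSPH, and serine hydroxymethyltransferase then splits it into glycine and a carbon unit carried on folate. Cells hold these reactions in parallel in the cytosol (SHMT1, MTHFD1) and in mitochondria (SHMT2, MTHFD2, MTHFD1L), where formate is produced for export, and GLDC starts the breakdown of glycine in the mitochondrial glycine cleavage system. The products feed the synthesis of purines and thymidylate and the methionine cycle, on which the oocyte and early embryo draw, and amino acids reach the oocyte both through its own carriers and from CC through gap junctions.

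Reads on genes numbered 7664375 to 17934916 in an oocyte pool and 1911600 to 5772431 in a CC pool, and values are counts per 1000000 such reads (CPM), a unit that does not correct for transcript length and in which levels of different genes cannot be ranked. The 9 mitochondrially encoded genes matched by symbol took 0.744 to 4.18% of the reads in oocyte pools and 11 to 37.3% in CC pools. Their medians were 20.8, 18.3 and 13.5% in small, large and spontaneous CC pools. Mitochondrial genes not matched are not in these shares, which are therefore partial. The labelled cell types were checked by markers. The 10 oocyte markers summed to 6985 to 10784 CPM in oocyte pools, and the 7 of them listed in the CC table to 2.09 to 13.7 CPM in CC pools. The 10 cumulus and granulosa markers summed to 3307 to 8738 CPM in CC pools and 149 to 636 CPM in oocyte pools, where HAS2 had class means of 185 to 198 CPM. White blood cell markers (8 listed) summed to 32.0 to 221 CPM in CC pools and 1.39 to 51.2 CPM in oocyte pools. The 2 theca markers summed to 108 to 1162 CPM in CC pools and 0 to 119 CPM in oocyte pools. In CC pools INSL3 was 410 ± 273 CPM and CYP17A1 0.183 ± 0.266 CPM (SD, n = 17). Endothelium markers summed to 7.38 to 68.9 CPM in CC pools and 93.5 to 153 CPM in oocyte pools, where TEK had a mean of 79.5 CPM. Whether other cells gave part of the reads was not tested.

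Among the serine synthesis enzymes, the first step was nearly without reads in oocytes and present in every CC pool, while the last step was higher in oocytes. PHGDH, the dehydrogenase that commits the glycolytic intermediate to serine, had 0 reads in 15 of the 16 oocyte pools and 3 reads, 0.391 CPM, in small replicate 3. In CC pools it ranged from 3.98 to 15.2 CPM in small (median 6.0), from 3.39 to 16.5 CPM in large (median 8.06) and was 7.94, 12.7, 5.08, 6.53 and 8.6 CPM in the 5 spontaneous pools. Over all pools, CC held 567 PHGDH reads of 71754441 and oocytes 3 of 206677713, a ratio of 544 in CPM with an exact 95% interval of 185 to 2648 that covers counting error only. No oocyte pool reached the lowest CC pool, and the CC means were 8.06 ± 4.57, 8.29 ± 4.87 and 8.17 ± 2.86 CPM in small, large and spontaneous pools (SD, n = 6, 6 and 5).

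PSAT1, the aminotransferase of the second step, was found at overlapping levels in both cell types. In oocytes it ranged from 6.95 to 18.1 CPM in small (median 10.6) and 10.9 to 22.9 CPM in large pools (median 15.1), and was 11.4, 2.83, 10.8 and 14.0 CPM in spontaneous pools. In CC it ranged from 0.346 to 15.2 CPM in small (median 11.9) and 2.55 to 28.1 CPM in large pools (median 6.21), and was 7.10, 12.3, 2.54, 3.45 and 1.10 CPM in spontaneous pools. The ranges overlapped between all classifications and between the cell types. PSAT1 was among the transcripts that varied most between CC pools of one classification: its within-class SD of 1.23 on the log2(CPM + 1) scale lay at the 98.6th percentile of the CC transcripts tested, whose median SD was 0.48, and few reads stood behind its lowest pools (2 reads in small replicate 6 and 5 reads in spontaneous replicate 5).

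PSPH, the phosphatase that releases serine, was higher in all oocyte pools than in any CC pool. It ranged from 47.1 to 83.8 CPM in small (median 59.3) and 44.6 to 79.6 CPM in large oocyte pools (median 62.8), and was 46.5, 66.2, 79.3 and 32.5 CPM in spontaneous ones. In CC the small pools ranged from 2.25 to 14.5 CPM (median 6.72) and the large from 2.27 to 13.0 CPM (median 5.13), and the spontaneous pools held 18.0, 8.0, 11.3, 10.3 and 6.61 CPM. The highest CC pool, at 18.0 CPM, stayed below the lowest oocyte pool, at 32.5 CPM.

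**Figure D1:**
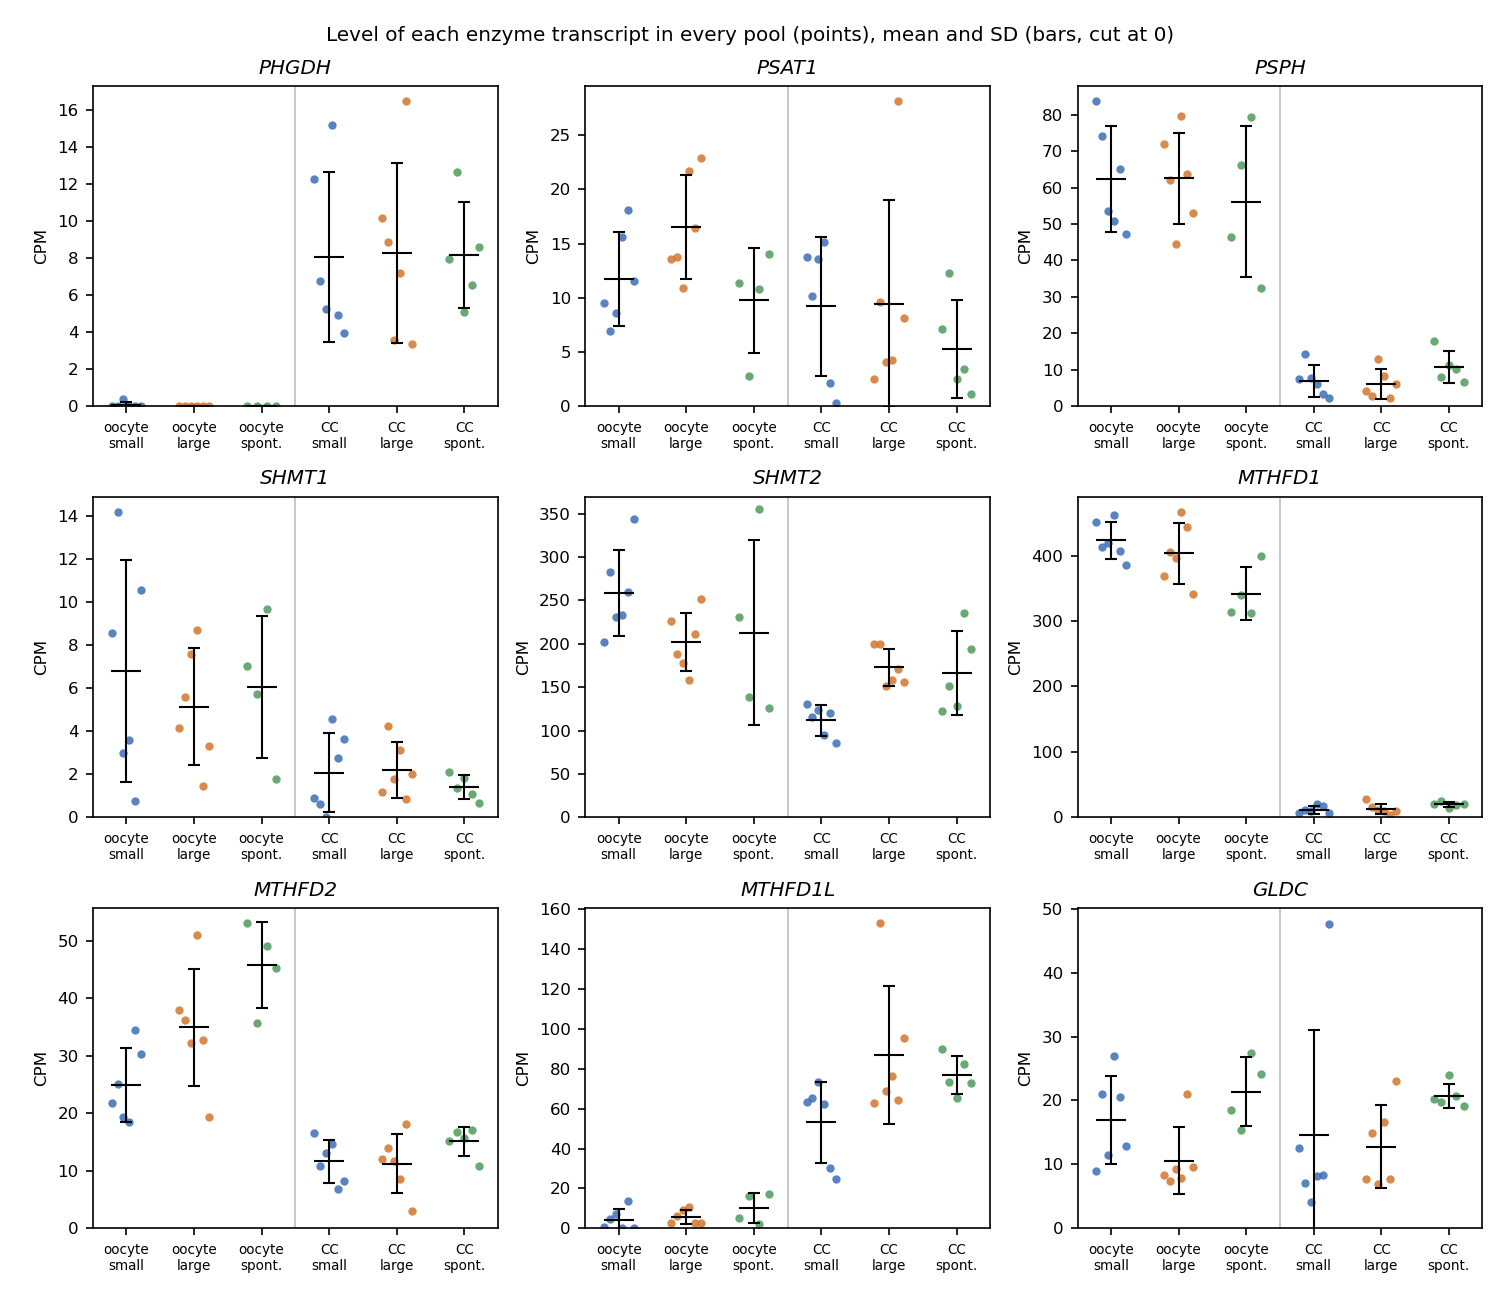
CPM (y axis, linear from 0, each panel on its own scale) of each of the 9 enzymes in the 16 oocyte and 17 CC pools, grouped on the x axis by cell type and follicle classification; points are pools and black bars the mean and SD. PHGDH lies at or near 0 in oocytes and MTHFD1 at 313 to 467 CPM in oocytes against 3.69 to 27.3 CPM in CC, while GLDC and PSAT1 cover overlapping ranges in both.

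The mitochondrial serine hydroxymethyltransferase SHMT2 was abundant in both cell types and its cytosolic counterpart SHMT1 was low in both. SHMT2 ranged from 203 to 344 CPM in small oocyte pools (median 246) and from 158 to 251 CPM in large ones (median 200), and was 231, 138, 356 and 126 CPM in spontaneous ones. In CC it ranged from 85.9 to 131 CPM in small (median 118) and from 152 to 200 CPM in large pools (median 165), and was 122, 151, 129, 236 and 194 CPM in spontaneous pools. The small and large CC pools did not overlap, which is the difference that chose the family: the means were 112 ± 17.6 and 173 ± 21.6 CPM (SD, n = 6 each), 0.63 higher in large on the log2(CPM + 1) scale. Over all pools the oocyte and CC ranges overlapped. Within its own library SHMT2 stood at a median percentile of 93.4 of the CPM of listed genes in oocytes and 93.3 in CC, a position that also carries transcript length and serves only to set the cell types side by side.

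SHMT1 ranged from 0.779 to 14.2 CPM in small (median 6.10), 1.48 to 8.73 CPM in large (median 4.88) and 1.78 to 9.71 CPM in spontaneous oocyte pools. In CC pools it ranged from 0 to 4.55 CPM over the 3 classifications, from 142 reads in all, and was not tested there because it did not reach 5 CPM in 5 CC pools. Oocyte and CC ranges overlapped.

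Of the enzymes that interconvert folate-bound carbon units, MTHFD1 and MTHFD2 were higher in oocytes and MTHFD1L was higher in CC. MTHFD1, the trifunctional cytosolic enzyme, ranged from 386 to 463 CPM in small (median 417) and 341 to 467 CPM in large oocyte pools (median 401), and was 315, 340, 313 and 399.5 CPM in spontaneous ones. It was one of the steadiest oocyte transcripts, with a within-class SD of 0.14 on the log2(CPM + 1) scale, at the 0.367th percentile of those tested, where the median SD was 0.66. In CC it was 6.06 to 21.0 CPM in small (median 10.1) and 3.69 to 27.3 CPM in large pools (median 10.5), and 21.1, 25, 13.6, 19.4 and 20.9 CPM in spontaneous pools.

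MTHFD1L, which yields formate in mitochondria, was instead higher in every CC pool than in any oocyte pool. In CC it ranged from 24.8 to 73.2 CPM in small (median 62.9) and 62.8 to 153 CPM in large pools (median 72.8), and was 89.8, 73.5, 65.5, 82.6 and 72.8 CPM in spontaneous ones. In oocytes it ranged from 0 to 13.6 CPM in small (median 2.65) and 2.49 to 10.5 CPM in large pools (median 4.42), and was 5.31, 16.3, 2.20 and 17.3 CPM in spontaneous ones. The highest oocyte pool lay below the lowest CC pool, and oocyte pools of one classification differed widely from each other, with a within-class SD at the 88.4th percentile of those tested. Whether CC left on oocytes gave part of these oocyte reads was not tested; the cumulus and granulosa markers other than HAS2, whose class means were higher in oocyte than in CC pools, summed to medians of 64.5, 73.7 and 126 CPM in small, large and spontaneous oocyte pools against 4581, 4189 and 5724 CPM in the CC pools, and the CC transcript PHGDH was at 0 in 15 of 16 oocyte pools.

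MTHFD2, the mitochondrial dehydrogenase and cyclohydrolase, was the third enzyme whose oocyte pools all exceeded the CC pools. It ranged from 18.5 to 34.5 CPM in small (median 23.5) and 19.4 to 51.0 CPM in large oocyte pools (median 34.5), and was 53.1, 35.7, 49.0 and 45.2 CPM in spontaneous ones. The 4 spontaneous oocyte pools lay above all 6 small ones and overlapped the large ones. In CC it ranged from 6.85 to 16.6 CPM in small (median 11.9) and 2.94 to 18.2 CPM in large pools (median 11.9), and was 15.3, 16.8, 15.6, 17.1 and 10.8 CPM in spontaneous ones. The lowest oocyte pool, at 18.5 CPM, stood just above the highest CC pool, at 18.2 CPM, in tables scaled separately. Whether the cell types stay without overlap under another scaling was not tested.

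GLDC, the glycine decarboxylase, had the most similar level in both cell types, with a mean of 15.7 ± 7.09 CPM in oocytes (SD, n = 16) and 15.8 ± 10.5 CPM in CC (SD, n = 17). In oocytes it ranged from 8.92 to 26.9 CPM in small pools (median 16.7), and 5 of the 6 large pools lay between 7.44 and 9.55 CPM with replicate 5 at 21.1 CPM, whereas the spontaneous pools held 18.5, 15.4, 27.4 and 24.1 CPM. In CC 5 of the 6 small pools lay between 4.18 and 12.6 CPM with replicate 6 at 47.6 CPM, the large pools ranged from 6.87 to 23.0 CPM (median 11.3) and the spontaneous pools held 20.3, 19.7, 24.0, 20.7 and 19.2 CPM. The mean of spontaneous pools was above that of large pools in both cell types, and the ranges of the 2 classifications overlapped in both.

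The follicle classifications were compared in each cell type with limma's moderated test on log2(CPM + 1), two-sided, over every transcript that reached 5 CPM in 4 or more oocyte pools, or in 5 or more CC pools. A transcript was called at a nominal p of 0.01 or less, and p-values were also adjusted by Benjamini-Hochberg over all transcripts tested. Of the 9 enzymes 8 passed this filter in oocytes (not PHGDH) and 8 in CC (not SHMT1), and since a gene passes where it is high, these counts say nothing of the family as such. The comparisons share pools, each classification entering a pair of them, so their values are given side by side and are not independent. The pools of a classification are separate pools by their labels, and where 1 pool decides a call it is named.

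None of the 8 enzymes tested in oocytes reached the threshold in any comparison of oocyte pools, where 0.655% of 10076 transcripts were called between small and large, 0.774% between small and spontaneous and 0.943% between large and spontaneous. The SHMT2 mean was 259 ± 49.8 CPM in small oocyte pools and 202 ± 33.9 CPM in large ones (SD, n = 6 each), a difference of -0.35 ± 0.16 (SE) on the log2 scale in the direction opposite to that in CC (limma p = 0.0417, adjusted p = 0.997, exact permutation p = 0.0368). Whether this difference differs from that in CC was not tested, because the oocyte and CC tables were scaled separately.

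MTHFD2 was 24.9 ± 6.38 CPM in small oocyte pools (SD, n = 6) and 45.7 ± 7.43 CPM in spontaneous ones (SD, n = 4), higher by 0.87 ± 0.40 (SE) on the log2 scale. The limma p was 0.0363 (adjusted 0.987) with all pools and 0.0673 without small replicate 3, a library that the study also left out in a second pass, and the exact permutation p of the difference in mean CPM was 0.00476, which is the lowest possible with 6 and 4 pools. It was the only enzyme of the 8 whose small and spontaneous oocyte pools did not overlap, a pattern found in 0.903% of all transcripts tested, and no enzyme tested was without overlap between small and large or large and spontaneous oocyte pools, where 0.258% and 0.913% of transcripts were. MTHFD1 was lower in the spontaneous pools than in the small ones by 0.31 ± 0.16 (SE) on the log2 scale (limma p = 0.0557, adjusted p = 0.987, exact permutation p = 0.00952), with overlapping ranges. GLDC differed by 1.0 ± 0.51 (SE) between large and spontaneous oocyte pools (limma p = 0.0608, adjusted p = 0.968, exact permutation p = 0.0238). The low enzymes SHMT1, PSAT1 and MTHFD1L had wide intervals, for example from -0.31 to 3.16 for MTHFD1L between small and spontaneous pools. Between small and large pools the intervals were -1.43 to 1.15 for SHMT1 and -0.43 to 1.41 for PSAT1. Differences inside such intervals could not be told from none here. The intervals of PSPH were narrower, for example from -0.50 to 0.52 between small and large pools.

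In CC the comparison of small with large pools was the one that chose the family. There 1 of the 8 enzymes, SHMT2, was past the threshold and without overlap, beside 0.813% of 9712 transcripts past the threshold and 0.247% without overlap, and nothing is read from this count. MTHFD1L had the larger difference, 0.73 on the log2 scale, with 53.2 ± 20.4 CPM in small and 86.9 ± 34.5 CPM in large pools (SD, n = 6 each) and overlapping ranges, and the large mean included replicate 2 at 153 CPM. The other 6 differed by 0.16 or less on the log2 scale, and each of them changed sign under at least 1 alternative or left-out pool.

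In the comparisons of spontaneous CC pools with small and with large ones, 0 of the 7 enzymes tested other than SHMT2 reached the threshold, where 2.38% and 1.66% of all transcripts did, and 0 were without overlap, where 1.16% and 0.865% were. SHMT2 is left out of these counts because its values in small and large pools chose the family. Between small and spontaneous pools 6 of the 7 had a higher mean in spontaneous pools, as did 71.9% of all transcripts, and the median difference was 0.62 for the 7 enzymes and 0.16 for all transcripts on the log2 scale. The share of mitochondrially encoded reads moved with this comparison. Under median-of-ratios scaling the median of all transcripts was 0.01, and 5 of the 7 were higher in spontaneous pools with a median of 0.47. MTHFD1 was 11.8 ± 6.04 CPM in small (SD, n = 6), 12.7 ± 8.10 CPM in large (SD, n = 6) and 20.0 ± 4.12 CPM in spontaneous CC pools (SD, n = 5), higher in spontaneous pools by 0.82 ± 0.32 (SE) against small (limma p = 0.0194, adjusted p = 0.482, exact permutation p = 0.0368) and by 0.79 ± 0.36 against large (limma p = 0.0432, adjusted p = 0.696, exact permutation p = 0.108). It passed the threshold without small replicate 4 in the first comparison (difference 1.0) and without large replicate 1 in the second (1.04).

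SHMT2 in spontaneous CC pools differed by -0.09 from large and by 0.54 from small pools on the log2 scale, given as a description with no test because the small and large values chose the family. MTHFD1L differed by -0.11 ± 0.22 (SE) between large and spontaneous pools (limma adjusted p = 0.929), with a 95% interval of -0.56 to 0.35, and by 0.62 ± 0.27 between small and spontaneous pools (limma p = 0.0312, adjusted p = 0.544, exact permutation p = 0.026).

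GLDC was 14.7 ± 16.4 CPM in small, 12.8 ± 6.51 CPM in large and 20.8 ± 1.88 CPM in spontaneous CC pools (SD, n = 6, 6 and 5). Spontaneous pools were higher by 0.91 ± 0.42 (SE) against small (limma p = 0.0445, adjusted p = 0.580, exact permutation p = 0.504) and by 0.79 ± 0.31 against large (limma p = 0.0196, adjusted p = 0.624, exact permutation p = 0.0368). One pool decided the first of these: without small replicate 6 the difference was 1.32, at a limma p of 0.000191 (adjusted p = 0.103), and without large replicate 6 the second was 0.97, at a limma p of 0.00292 (adjusted p = 0.655). PSPH was higher in spontaneous than in large CC pools by 0.84 ± 0.40 (SE), with a limma p of 0.0492, an adjusted p of 0.699 and an exact permutation p of 0.0974.

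**Figure D2:**
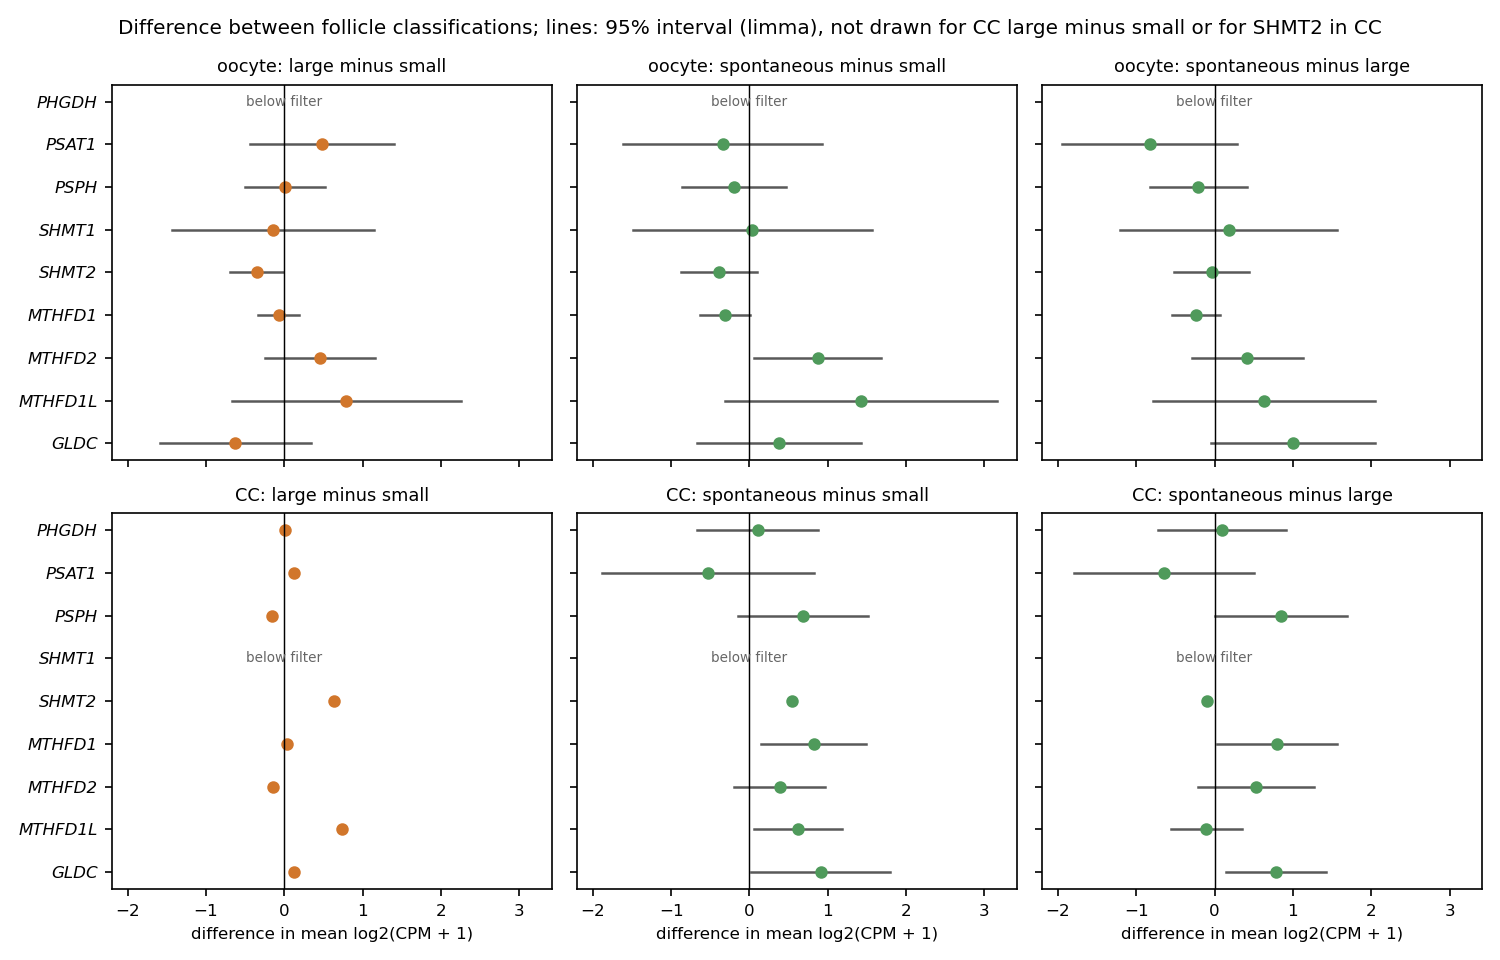
Difference in mean log2(CPM + 1) (x axis) between follicle classifications for each enzyme (y axis), in oocytes (top) and CC (bottom); points are estimates and lines 95% intervals from limma, not drawn for CC large minus small or for SHMT2 in CC because those values chose the family. In CC the mean of spontaneous pools is above that of small pools for 6 of the 7 enzymes other than SHMT2, as for 71.9% of all transcripts, and the ranges overlap. The widest interval is that of MTHFD1L in oocytes, -0.31 to 3.16 between small and spontaneous pools.

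Between the cell types the enzymes fell into 3 sets: higher in oocytes, higher in CC, or overlapping. The tables were scaled separately, so levels are described with no test, and in bulk pools fewer cells of a type and less RNA per cell cannot be told apart. Of the 9 enzymes, 3 (PSPH, MTHFD1 and MTHFD2) had all 16 oocyte pools above all 17 CC pools, a pattern found in 22.9% of the 11431 genes that both tables list and that passed the filter in at least 1. The reverse held for PHGDH and MTHFD1L, 2 of the 9, beside 13.4% of the genes. For MTHFD2 the margin was narrow (18.5 CPM in the lowest oocyte pool, 18.2 CPM in the highest CC pool). Overlap under another scaling was not tested. The mean log2(CPM + 1) was higher in oocytes for 7 of 9, against 52.2% of the genes, and these include GLDC, whose mean CPM was not higher. PHGDH passed the filter only through CC and SHMT1 only through oocytes, so the filter favoured their directions. The shares of all genes hold such genes too. The differences in mean log2(CPM + 1), oocyte minus CC, were 4.82 for MTHFD1, 2.96 for PSPH, 1.38 for MTHFD2, 1.17 for SHMT1, 0.92 for PSAT1, 0.59 for SHMT2, 0.09 for GLDC, -3.04 for PHGDH and -3.70 for MTHFD1L, beside a median of 0.15 over the 11431 genes. That of MTHFD1 lay at the 96.1st percentile of those genes and that of MTHFD1L at the 5.91st. The added 1 CPM shrinks the difference of PHGDH, so its order against MTHFD1L is not read. By summed reads PHGDH was at 0.0145 CPM in oocytes and 7.90 CPM in CC, and MTHFD1L at 6.74 and 69.9 CPM. With 0.1 CPM added instead, the PHGDH difference was -6.07. Signs other than that of GLDC were the same when mitochondrially encoded reads were left out and when both tables were scaled together by median of ratios, which moved the median of all genes to -0.11 and -0.20 and that of GLDC to -0.17 and -0.25.

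Within a pool, a mitochondrial enzyme can be set against its cytosolic counterpart, and scaling drops out of such a ratio apart from the 1 CPM added to each level. The log2 ratio of MTHFD1L to MTHFD1 was -8.86 to -4.30 in oocyte pools and 0.78 to 3.80 in CC pools, and that of MTHFD2 to MTHFD1 was -4.57 to -2.55 in oocytes and -1.38 to 2.03 in CC, without overlap in either case. For SHMT2 over SHMT1 the ranges were 4.03 to 7.20 in oocytes and 4.10 to 6.96 in CC, but the added 1 CPM lowers this ratio where SHMT1 is low. In CC SHMT1 had 142 reads in all and 0 in 1 small pool. By summed reads SHMT2 and SHMT1 were at 222 and 6.02 CPM in oocytes and at 150 and 1.98 CPM in CC. The mitochondrial and cytosolic transcripts of the dehydrogenase family stood in different proportions in the 2 cell types. Those of serine hydroxymethyltransferase overlapped on this scale, and whether their proportions differ was not tested. Among oocyte classifications the MTHFD2 to MTHFD1 ratio was -4.57 to -3.52 in small (median -4.15), -4.07 to -3.17 in large (median -3.51) and -3.21 to -2.55 in spontaneous pools (median -2.88), so small and spontaneous pools did not overlap. MTHFD2 alone did not overlap between these pools either, as given above, so the ratio is not a separate result. In CC the same ratio overlapped among all classifications.

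**Figure D3:**
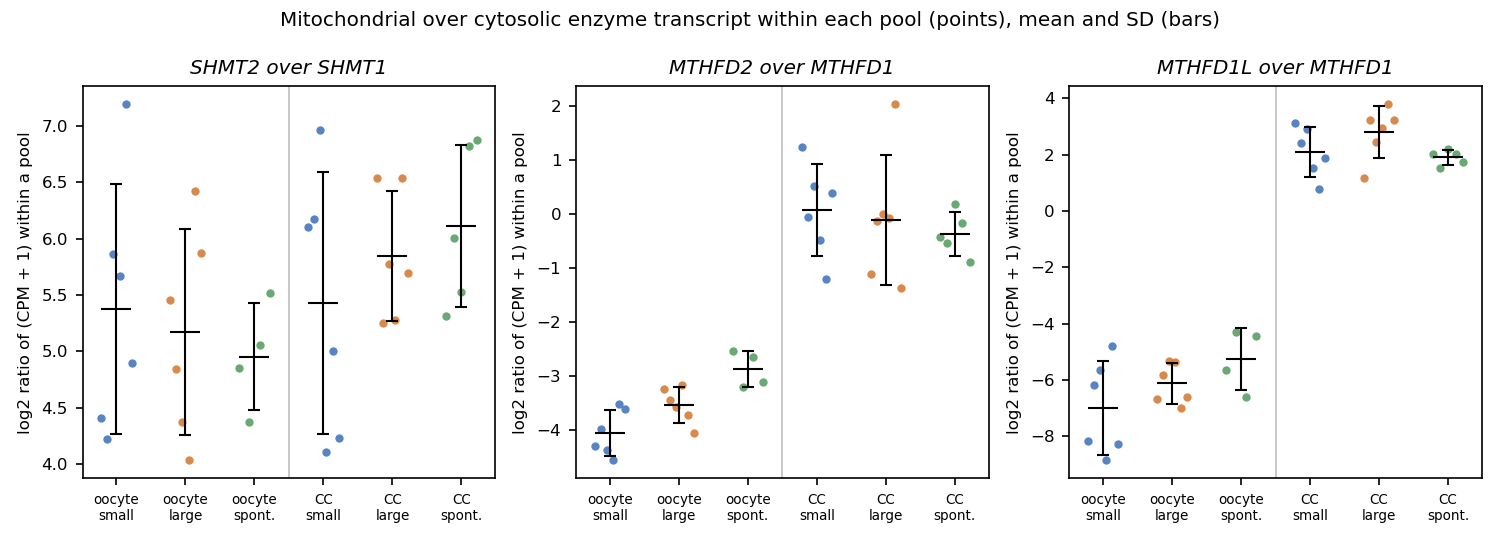
Log2 ratio of (CPM + 1) of a mitochondrial to a cytosolic enzyme transcript within each pool (y axis) by cell type and classification (x axis); points are pools and bars the mean and SD. The 2 ratios over MTHFD1 do not overlap between oocyte and CC pools, whereas SHMT2 over SHMT1 covers 4.03 to 7.20 in oocytes and 4.10 to 6.96 in CC. The added 1 CPM lowers the latter ratio where SHMT1 is low, as in CC.

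The rest of the pathway was followed through 53 further genes in 8 lists, of which 47 were in both tables and 37 passed the filter in at least 1. Of the 37, 7 had oocyte pools wholly above CC pools and 5 the reverse, beside the 22.9% and 13.4% of all genes given above, and the median difference was 0.13, beside 0.15 over all genes. The partners of GLDC were lower in oocytes: GCSH, AMT and DLD, the other glycine cleavage proteins, had a median difference of -2.67. GCSH and AMT passed the filter only through CC, where they are high, so the filter favoured this direction and nothing is read from the median. GCSH, the lipoate carrier that GLDC loads, was 2.17 ± 1.69 CPM in oocytes (SD, n = 16) and 56.8 ± 19.4 CPM in CC (SD, n = 17) without overlap. AMT ranged from 0 to 2.43 CPM in oocytes and from 2.27 to 23.1 CPM in CC, with overlap. GLDC itself, as given above, did not differ by more than the spread between pools. DLD, shared with other mitochondrial dehydrogenase complexes, also had all CC pools above all oocyte pools, at 169 ± 49.8 CPM against 59.2 ± 15.8 CPM.

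Of the 5 genes of folate uptake and reduction past the filter, 0 were without overlap between the cell types, and of 8 other folate enzymes 1 was wholly above CC in oocytes and 2 the reverse, counts too small to set against those shares. TYMS, thymidylate synthase, was 341 ± 37.7 CPM in oocytes and 21.5 ± 9.18 CPM in CC, without overlap. MTHFS was 1.80 ± 2.77 CPM in oocytes and 21.1 ± 7.36 CPM in CC, without overlap and with CC higher, and so was ALDH1L2, a mitochondrial formyl-folate dehydrogenase, at 2.86 ± 3.06 and 31.9 ± 11 CPM. SLC25A32, the mitochondrial folate carrier, was 41.4 ± 11.8 CPM in oocytes and 9.21 ± 5.27 CPM in CC, with overlap. FOLR2, a folate receptor, was 0.289 ± 0.91 CPM in oocytes and 4.55 ± 4.11 CPM in CC, with overlap.

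In the methionine cycle, MAT2B, the regulatory subunit of methionine adenosyltransferase, was 193 ± 50.6 CPM in oocytes and 23.1 ± 8.08 CPM in CC without overlap, and AHCY, which hydrolyses S-adenosylhomocysteine, was 45.4 ± 20.4 and 101 ± 21.1 CPM with overlap. CTH, the last enzyme of transsulfuration from serine to cysteine, was 29.7 ± 12.0 CPM in oocytes and 1.06 ± 0.632 CPM in CC without overlap, whereas SDS, serine dehydratase, was 0.469 ± 0.819 and 9.22 ± 13.6 CPM with overlap. Of the betaine and sarcosine genes, DMGDH (2.68 ± 3.27 CPM in oocytes, 0.477 ± 1.36 CPM in CC) and BHMT2 (0.00697 ± 0.0279 and 0.0703 ± 0.182 CPM) stayed below the filter in both tables.

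The largest differences lay in carriers and in the amino acid response. SLC1A5, a sodium-dependent carrier of neutral amino acids including serine, was 282 ± 58.4 CPM in oocytes and 7.51 ± 4.75 CPM in CC, and SLC38A2, another carrier of small neutral amino acids, was 18.0 ± 14.8 CPM in oocytes and 674 ± 178 CPM in CC, each without overlap. CHAC1, a glutathione-degrading target of ATF4, was 241 ± 98.3 CPM in oocytes and 3.45 ± 2.82 CPM in CC. Of the 5 genes of this list past the filter, 3 (CHAC1, ASNS and SESN2) were above CC in all oocyte pools, a count too small to set against 22.9%. DDIT3 was 97.6 ± 40.3 CPM in oocytes and 17.4 ± 6.29 CPM in CC, with overlap. ATF5 (0.720 CPM in oocytes, 0.172 CPM in CC) and TRIB3 (0.00577 and 0.549 CPM) stayed below the filter in both tables, with means in opposite directions. The messenger of ATF4 itself, a factor controlled mainly through its translation, was 75.2 ± 29.1 CPM in oocytes and 206 ± 34.6 CPM in CC, with overlap. PHGDH and PSAT1 are commonly counted among ATF4 targets too, and their values are given above.

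**Figure D4:**
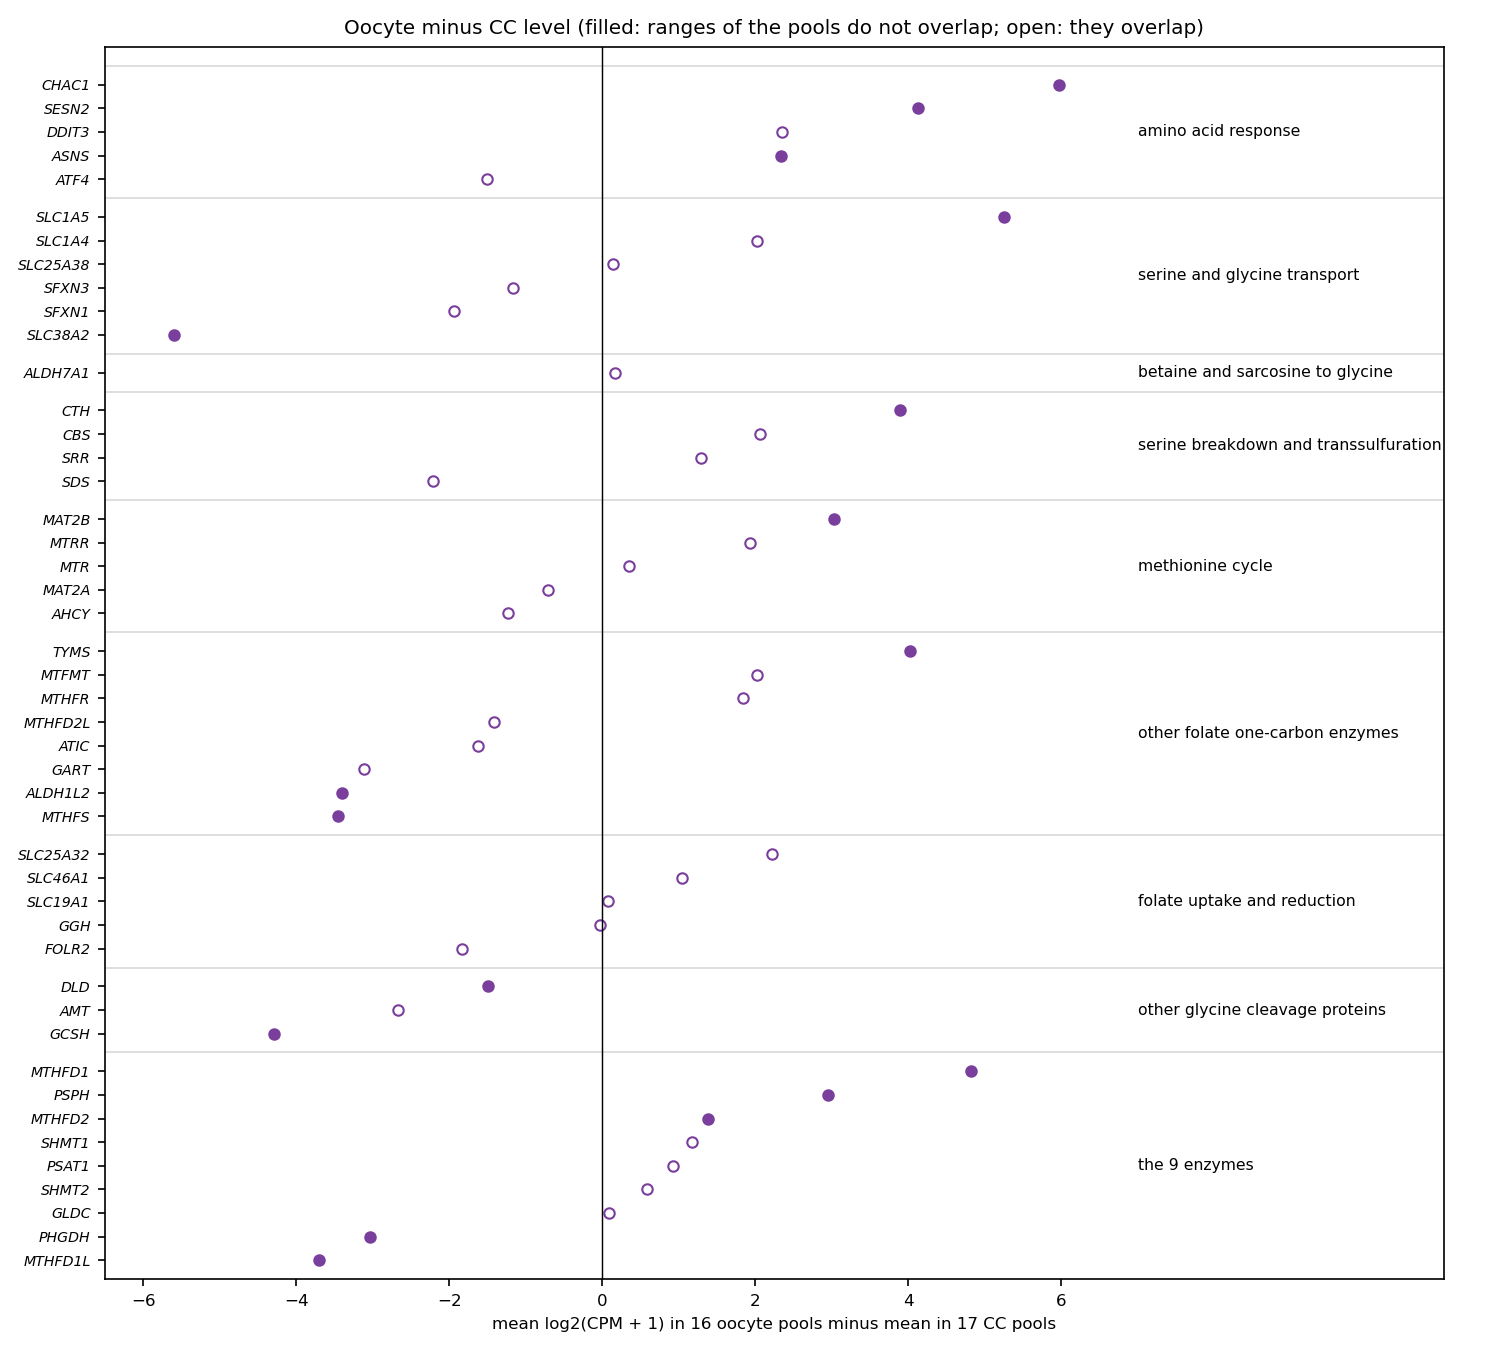
Mean log2(CPM + 1) in oocyte pools minus that in CC pools (x axis) for the 9 enzymes and the 37 further pathway genes past the filter, grouped by list (y axis); filled points are genes whose oocyte and CC pools do not overlap. The enzymes run from -3.70 (MTHFD1L) to 4.82 (MTHFD1), and the other glycine cleavage proteins all lie below 0. Of these, GCSH and AMT passed the filter only through CC. The added 1 CPM shrinks the difference of PHGDH, which was nearly without reads in oocytes.

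Among follicle classifications, 2 of the 32 further pathway genes tested in oocytes were called between small and large pools, 1 in each direction, and 0 in the other 2 oocyte comparisons; in CC 0 of 34 were called in each of the 3 comparisons. The 2 were SFXN1 and SLC1A4, both carriers, and nothing is read from that. The share of all transcripts called between small and large oocyte pools was 0.655%, and the count is not read against it, because SFXN1 passed the filter only through large and spontaneous pools and so had to differ from the small ones. SFXN1, the mitochondrial serine importer upstream of SHMT2, was 1.14, 0, 1.30, 0.572, 0 and 0.345 CPM in small oocyte pools and 10.1, 6.59, 5.36, 1.86, 1.48 and 8.45 CPM in large ones, without overlap. The difference was 1.96 on the log2 scale, given with no p for that reason, and spontaneous pools spread over 1.46, 6.88, 16.7 and 0.725 CPM. SLC1A4, a plasma membrane carrier of serine and alanine, was 92.9, 38.3, 32.9, 32.5, 92.0 and 78.6 CPM in small and 33.4, 30.3, 37.5, 25.1, 23.9 and 7.44 CPM in large oocyte pools, which overlapped. It was lower in large pools by 1.18 ± 0.39 (SE) on the log2 scale (limma p = 0.00477, adjusted p = 0.997, exact permutation p = 0.0173). SLC1A4 was not called without small replicate 1, 5 or 6, without large replicate 6, or with no filter. For SFXN1 the calls with a pool left out are not read, since the filter decided its difference.

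**Figure D5:**
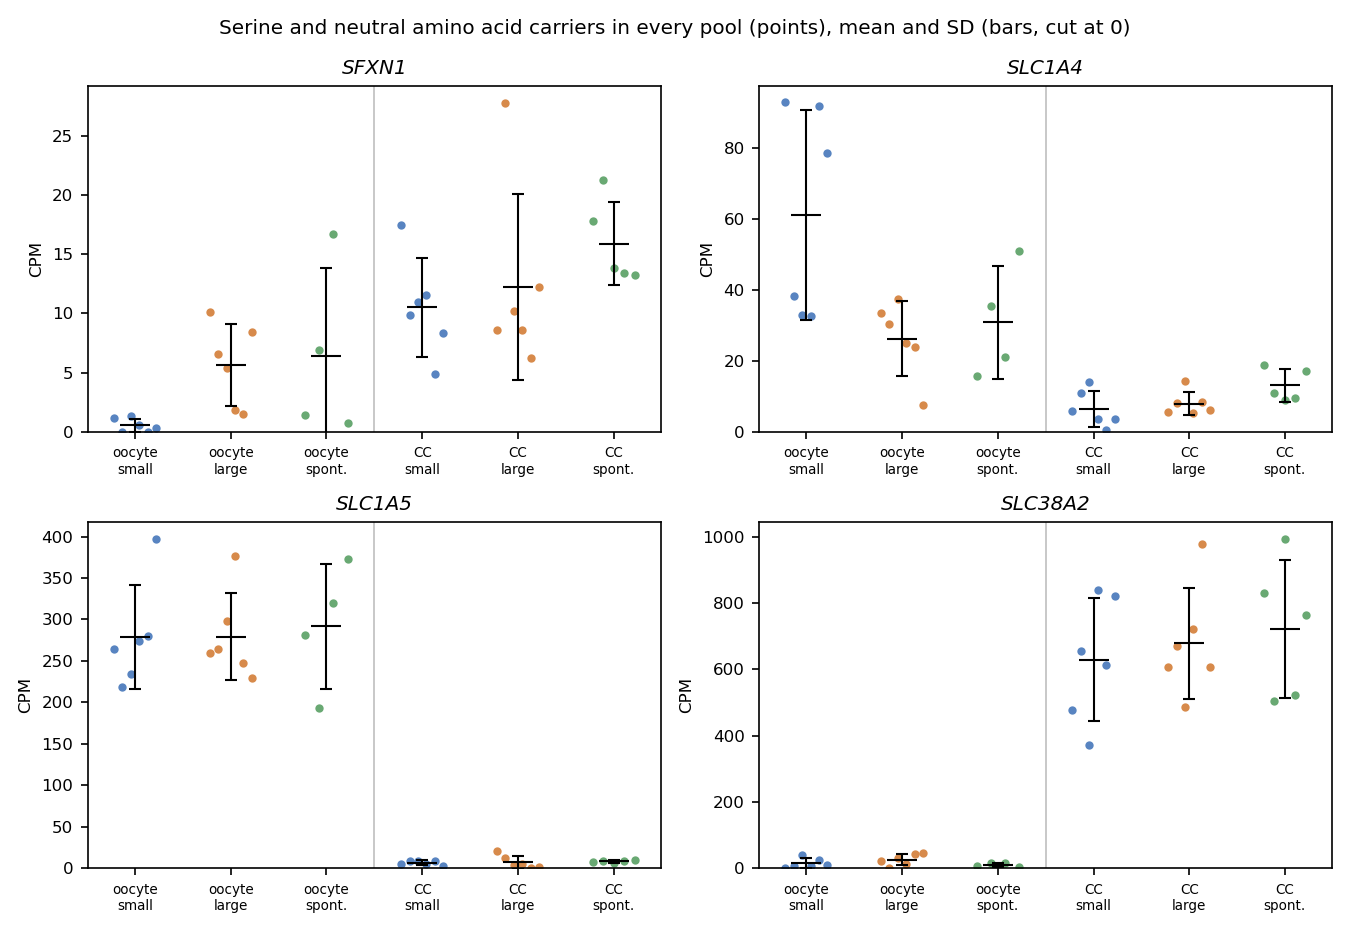
CPM (y axis, linear from 0) of 4 carriers in each pool by cell type and classification (x axis); points are pools and bars the mean and SD, cut at 0. SFXN1 is at 0 to 1.30 CPM in small and 1.48 to 10.1 CPM in large oocyte pools, SLC1A5 is high in oocytes and SLC38A2 in CC.

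How the enzymes varied together was described by correlation over pools, which share depth, amplification and classification and are few, so no p is given. In CC the correlations of SHMT2 also carry the difference between small and large pools that chose the family. A transcript that differs between these pools will tend to correlate with SHMT2, and nothing is read from these correlations. In the 17 CC pools the highest Pearson correlations of log2(CPM + 1) among the enzymes tested were PHGDH with MTHFD2 (r = 0.64, Spearman's rho = 0.63), SHMT2 with MTHFD1L (r = 0.60, rho = 0.51) and PHGDH with PSAT1 (r = 0.56, rho = 0.58). In the 16 oocyte pools SHMT2 and MTHFD1L went opposite ways (r = -0.60, rho = -0.60), and MTHFD2 with MTHFD1L had r = 0.47. The transcripts most like SHMT2 over the 17 CC pools, among 9293 with a symbol, were PDK1, an inhibitor of pyruvate dehydrogenase (r = 0.80), TPI1, a glycolytic enzyme (r = 0.79), and RBM3, a cold-inducible RNA-binding protein (r = 0.79). Those most like MTHFD1 over the 16 oocyte pools, among 9570, were CEP350 (r = 0.81), SLC8A1 (r = 0.78) and TTBK2 (r = 0.77).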

How the data were processed

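The unit deposited is CPM, counts per 1000000 reads assigned to a gene, which the authors made by trimming single-end reads of amplified cDNA with fqtrim, aligning them to UMD3.1 with Hisat2 and counting them on Ensembl genes with FeatureCounts, in separate oocyte and CC tables. Amplified reads are not independent molecules, so counting intervals cover counting error only. In every pool 100% of values gave whole reads (tolerance 0.01 reads), and these reads were recovered for the alternatives. Columns were matched to pools by name, with 0 unmatched, and every pair of pools of a group differed by more than sampling noise (chi-square over its degrees of freedom at least 60.9 for oocyte pairs and 13.4 for CC pairs). Coordinates and sequences are not given, for lack of a UMD3.1 genome in the analysis.

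Transcripts that reached 5 CPM in 4 or more oocyte pools, or in 5 or more CC pools, were tested between 2 classifications with limma 3.58.1 (R 4.3.3) on log2(CPM + 1), with the variance prior following mean level, two-sided and without covariates, at a nominal p of 0.01 or less. As in the study, a call that involves small oocyte pools counted only if it also held with small replicate 3 removed. The study tested counts with edgeR and DESeq2, and these were run here on recovered reads as alternatives (edgeR 4.0.16, DESeq2 1.42.0). The other alternatives were a pseudocount of 0.1, other filters (none, or a mean from 1 CPM) and scaling by median of ratios. Further ones were removal of the 9 mitochondrially encoded genes matched by symbol, a joint fit of the 3 classifications, a block for replicate number, and each pool left out. An exact permutation test, two-sided, compared mean CPM. The fits were tested on simulated data first. P-values measure the spread between these pools.

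The 9 enzymes, the 8 pathway lists and the markers were chosen with earlier results of these data known, including SHMT2 in CC, and no list was tested as a set. Further genes named are pathway genes called in a comparison, those with the largest oocyte and CC difference of each list in each direction, the 3 transcripts most correlated with SHMT2 in CC and with MTHFD1 in oocytes, and markers. AMT, DLD, ALDH1L2, ASNS and SESN2 are named as members of a count, and DDIT3, ATF5 and TRIB3 as the rest of their list. SLC6A9 has a different identifier in each table and was left out, CEBPB was not analysed here, and 1 pathway gene is not reported here and was taken out of its list. Figures were drawn with Python 3.11.15, pandas 2.3.3 and matplotlib 3.10.9.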

Additional observations from a re-analysis of the deposited data

Results flagged for a closer look

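In 48 groups of 4 to 6 pools of an enzyme past the filter, 2 pools stood farther from the others than Dixon's 95% critical value allows on the log2(CPM + 1) scale, where chance gives about 1 in 20 groups. GLDC was 21.1 CPM in large oocyte replicate 5, against 7.44 to 9.55 CPM in the other 5 large oocyte pools, a gap of 0.77 of the range. MTHFD2 was 10.8 CPM in spontaneous CC replicate 5, against 15.3 to 17.1 CPM in the other 4 spontaneous CC pools, a gap of 0.75 of the range. Without the first pool GLDC differed by 1.2 on the log2 scale between large and spontaneous oocyte pools (limma adjusted p = 0.990), short of the threshold.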

How the results depend on the processing

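Within each comparison, the number of transcripts at the threshold moved by over 1.5 times in oocytes without a filter (101 between small and large, 148 between large and spontaneous) and with DESeq2 (114, 122 and 181 between small and large, small and spontaneous, and large and spontaneous), and in CC between small and large pools without a filter (121) and with all classifications in one fit (137). Between small and spontaneous CC pools it was 126 under median-of-ratios scaling, 126 without mitochondrially encoded genes and 128 with edgeR, of which 79, 86 and 73 were higher in spontaneous pools, against 221 of 231 as reported. Equal replicate numbers did not pair the pools (correlations of -0.19 to 0.22). With the replicate block 41 transcripts were called between small and spontaneous oocyte pools, 1 enzyme (GLDC) in each comparison with spontaneous CC pools, 1 further pathway gene in oocytes and 2 in CC; the block leaves out the pool without a partner, and the GLDC values (1.32 and 0.97) are those without small and large CC replicate 6. MTHFD2 was the 1 enzyme called between small and spontaneous oocyte pools without a filter. With one fit, and likewise without small replicate 3, 2 enzymes were past the threshold between small and large CC pools, and with one fit 1 (SHMT2) between small and spontaneous; these counts rest on values that chose the family, and nothing is read from them. Without a filter 1 further pathway gene was called in oocytes and 1 in CC, and with a mean of at least 1 CPM 2 in CC. With a pseudocount of 0.1 PHGDH differed by -6.07 between oocytes and CC, and GLDC turned to -0.17 and -0.25 as given above.

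Leaving out 1 pool, transcripts called ranged from 48 to 94, 49 to 133 and 75 to 144 in oocytes (small and large, small and spontaneous, large and spontaneous) and from 52 to 114, 144 to 313 and 91 to 236 in CC. The extremes came without small replicate 3 (133), spontaneous replicate 3 (49) and spontaneous replicate 2 (144) in oocytes, and without small replicate 5 (52), spontaneous replicate 5 (144, and 100 against large pools) and spontaneous replicate 4 (91) in CC. Enzymes called ranged from 0 to 0, 0 to 1 and 0 to 0 in oocytes and from 1 to 2, 0 to 1 and 0 to 1 in CC. Apart from SHMT2 in CC, the ones called were SHMT2 (-0.68) without spontaneous oocyte replicate 3; against small CC pools, MTHFD1 (1.0) without small replicate 4 and GLDC without small replicate 6; and against large CC pools, MTHFD1 (1.04) without large replicate 1 and GLDC without large replicate 6. Further pathway genes called ranged from 0 to 3 in oocytes, with 0 without small replicate 5 or large replicate 6, and from 0 to 2 in CC, and the GLDC level difference from -0.00102 to 0.201. The oocyte counts include SFXN1 where it passed, and nothing is read from them.

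Some differences changed sign. Between small and large CC pools, given as a description, PHGDH, PSAT1, PSPH, MTHFD1, MTHFD2 and GLDC each did so under some alternative or left-out pool, and 4 of 8 enzymes in place of 6 were higher in large pools under median of ratios. PSPH between small and large oocyte pools was -0.026 under median of ratios, -0.000155 without mitochondrially encoded genes, -0.0293 with edgeR and -0.0345 with DESeq2. SHMT1 between small and spontaneous oocyte pools was -0.18 with the block, -0.22 with edgeR and -0.22 with DESeq2, and between large and spontaneous -0.21 with the block. SHMT2 between large and spontaneous oocyte pools was 0.066 with the block, 0.0476 with edgeR and 0.057 with DESeq2. PHGDH between small and spontaneous CC pools was -0.0287 under median of ratios, -0.0199 without mitochondrially encoded genes, -0.039 with the block, -0.0816 with edgeR and -0.0845 with DESeq2, and between large and spontaneous -0.0868 with the block, -0.0941 with edgeR and -0.0968 with DESeq2. With 1 pool left out, oocyte differences between small and large ranged from -0.50 to 0.12 for SHMT1 and -0.066 to 0.0981 for PSPH, between small and spontaneous from -0.32 to 0.43 for SHMT1, -0.56 to 0.0977 for PSAT1 and -0.39 to 0.034 for PSPH, and between large and spontaneous from -0.0699 to 0.58 for SHMT1, -0.32 to 0.17 for SHMT2 and -0.39 to 0.0263 for PSPH. CC differences ranged from -0.0526 to 0.30 for PHGDH between small and spontaneous, and between large and spontaneous from -0.23 to 0.0102 for SHMT2, -0.0868 to 0.31 for PHGDH and -0.18 to 0.0695 for MTHFD1L. The cause of these changes was not tested. Depth limits the low enzymes most: 3 reads were worth 0.167 to 0.391 CPM in oocyte and 0.52 to 1.57 CPM in CC pools.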
